A study of Mus musculus with 7 samples.

Results

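The receptor genes examined were 9 of the 55536 genes in the count table: the adrenergic receptors Adra1a, Adra1b, Adra2a and Adrb1, the vasopressin receptor Avpr1b, the muscarinic acetylcholine receptors Chrm1, Chrm3 and Chrm4, and the corticotropin-releasing hormone receptor Crhr1. They were taken by gene symbol, as receptors for autonomic transmitters or stress hormones, and all 9 symbols were found. RNA was sequenced from alpha cells of the mouse pancreas, the glucagon-secreting cells of the islet, which had been sorted by the red fluorescence of tdTomato. All 7 libraries come from animals with Gcg-iCre, a Cre recombinase driven from the glucagon gene, and the reporter Rosa26:tdTomato. The 4 control libraries had the genotype Nkx2.2+/+, and the 3 knockout (KO) libraries had Nkx2.2fl/fl, in which Cre removes the transcription factor NKX2.2 from cells that have made glucagon. The series gives the strain as C57BL/6J. Age, sex and the number of animals behind a library were not given in the sources used here, so p-values measure the spread between these libraries, which may in part be technical. The comparison asked how the loss of NKX2.2 in alpha cells relates to the transcripts of these receptors.

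Islet cells receive sympathetic and parasympathetic nerve endings and hormones from the blood. Adrenaline and noradrenaline act through adrenergic receptors, acetylcholine through muscarinic and nicotinic receptors, and vasopressin through AVPR1B, which is also the vasopressin receptor of the pituitary corticotroph. AVPR1B, CHRM1, CHRM3 and the alpha-1 adrenergic receptors couple to Gq proteins, which raise inositol trisphosphate and cytosolic calcium. ADRB1 and CRHR1 couple to Gs and raise cyclic AMP, while ADRA2A and CHRM4 couple to Gi and lower it. In alpha cells, adrenaline and vasopressin are known to stimulate glucagon release.

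Total counts per library ran from 45483504 to 72456557. Control 4 and a KO library whose column number matches no sample title, called the unnumbered KO library here, were the 2 deepest. Control 4 had counts for 31024 genes and the other libraries for at most 25873. Libraries also differed in sex-linked transcripts. The summed normalized counts of 4 Y-linked genes (Ddx3y, Eif2s3y, Kdm5d and Uty) were 4.54 and 0 in controls 1 and 2, 8764 and 8844 in controls 3 and 4, 1675 and 3491 in KO 1 and KO 2 and 11338 in the unnumbered KO library, while Xist was at 43397 in KO 1 and 25628 in KO 2. Normalized counts are counts divided by a size factor for each library. Nkx2-2, the targeted gene, had 8596, 11199, 12297 and 9782 of them across the controls, against 7758 for KO 1, 7534 for KO 2 and 7694 for the unnumbered KO. All KO values were lower, with an adjusted p of 0.0218 by DESeq2, a count-based test, and 0.152 by the quasi-likelihood test of edgeR. Which exons the allele removes is not given in the sources used here. Alpha cell markers were abundant in every library, led by Gcg with at least 2837930 normalized counts. Of 11 such markers, 8 were lower in KO by DESeq2 and none was higher. Markers of other islet cells were detected too. Of 4 gamma cell markers, the hormone genes Ppy (log2 fold change 1.51) and Pyy (1.01) were higher in KO, while Sertm1 (-0.13) and Aqp4 (0.05) did not pass. The summed level of the 4 was 309330 to 580204 in controls and 889660 to 1136309 in KO. Among acinar, duct, endothelial, mesenchymal, Schwann cell and leukocyte lists, DESeq2 called 1 duct marker higher and 1 leukocyte marker lower. In bulk RNA, fewer cells of a type and less RNA per cell cannot be told apart.

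Avpr1b fell in KO alpha cells to 19.7% of its control level. It was the 1 receptor of the 9 that was past the threshold (an adjusted p under 0.05) in both DESeq2 and edgeR. Controls 1 to 4 gave 2012, 1066, 2283 and 1862 normalized counts of Avpr1b, KO 1 gave 338, KO 2 gave 479 and the unnumbered KO gave 251. Every KO library lay below every control, and the lowest control was 2.23 times the highest KO library. Controls spread as well, with the highest 2.14 times the lowest. The means were 1806 ± 523 (SD, n = 4) and 356 ± 115 (SD, n = 3), a 5.07-fold lower level in KO. DESeq2 put the log2 fold change, KO over control, at -2.34 (SE 0.28; adjusted p 1.45e-14), and the edgeR adjusted p was 0.0135. Over all genes tested, DESeq2 called 4.51% (2.27% lower in KO) and edgeR called 1.05% (0.647% lower). An exact permutation test of the mean log2 difference, two-sided, gave p = 0.0286, the smallest that 35 splits of 4 against 3 libraries allow. Leaving out each library in turn, DESeq2 called Avpr1b 7 of 7 times, at log2 fold changes from -2.62 to -2.15. In edgeR its call was lost without KO 1 (adjusted p 0.0988) or the unnumbered KO (0.0575).

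Avpr1b (ENSMUSG00000026432) lies on chromosome 1, 131599239 to 131612000 on the plus strand of GRCm38. No exon of an opposite-strand gene overlaps its 4023 exon bases. The summed level of the alpha cell markers, set mostly by Gcg, moved with Avpr1b: it was 6645922 to 8789260 in controls and 3181115 to 4597289 in KO. The part of this in the Avpr1b result was not tested. Controls 1 and 2, with almost no Y-linked transcripts, and controls 3 and 4, with many, all lay above the KO libraries, but no KO library was near 0 for these transcripts, so the groups were not compared at that level. Among 12394 protein-coding genes with a mean of at least 50 normalized counts, the 3 whose log2 profile over the 7 libraries lay closest to that of Avpr1b were Slc25a43, Slc38a5 and Slco4a1, at mean absolute differences of 0.142, 0.192 and 0.216 log2 units. Slc38a5, an amino acid transporter of alpha cells, changed by -2.14 on the log2 scale (adjusted p 7.1e-29 in DESeq2, 0.0024 in edgeR) and is also 1 of the 11 alpha cell markers. Slco4a1, an organic anion transporter, had -2.24 (2.56e-08 and 0.0262). Slc25a43, a mitochondrial carrier, had -2.18 and passed in DESeq2 (4.4e-04) but not in edgeR (0.0697).

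**Figure D1:**
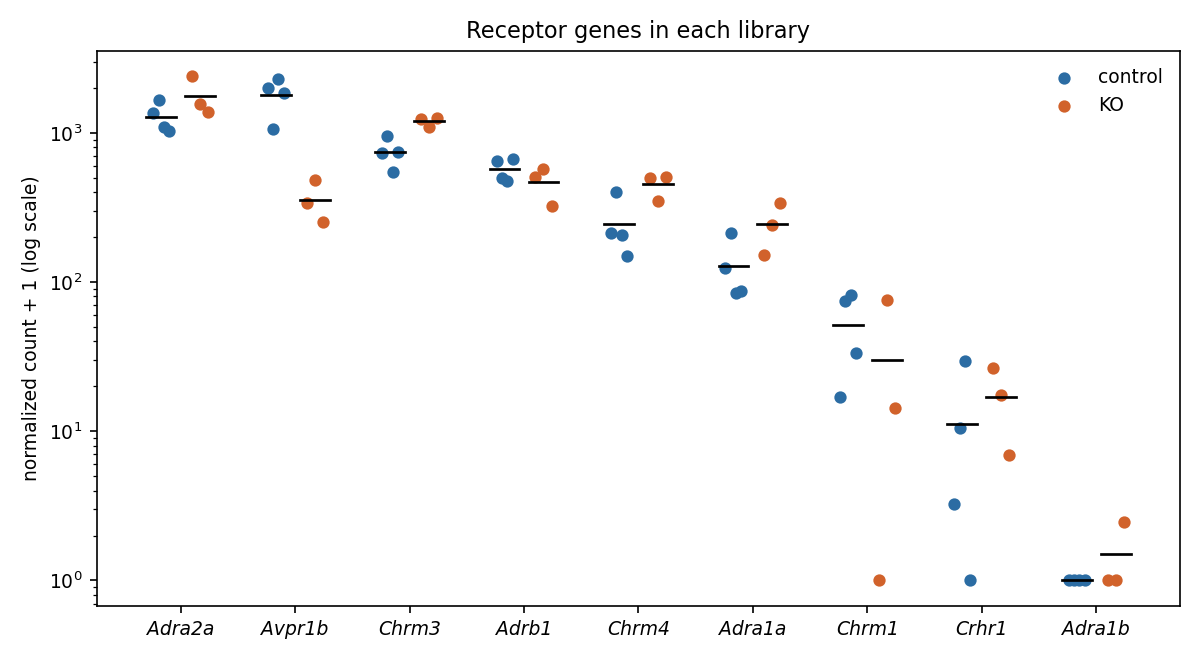
Normalized counts plus 1 of the 9 receptor genes (log axis), with 1 point per library (4 control, 3 KO) and a bar at each group mean. The groups separate for Avpr1b, which was lower in KO, and for Chrm3, which was higher, and overlap for the other genes with more than 2 counts.

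No other vasopressin or oxytocin receptor gene passed the threshold. Oxtr, the oxytocin receptor, averaged 8629 ± 2308 normalized counts (SD, n = 4) over the controls and 8641 ± 1292 (SD, n = 3) over the KO libraries (log2 fold change 0.00, SE 0.20, adjusted p 0.999). Avpr1a, which encodes the V1a receptor of liver and smooth muscle, had between 5.78 and 43.0 normalized counts, with a log2 fold change of -0.06 (SE 0.89). Avpr2, the kidney receptor, had at most 2 counts in any library. Whether the change of Avpr1b differs from that of Oxtr was not tested. Transcripts of the ligands themselves were near 0, with at most 2 counts per library for Avp and for Oxt.

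Among the muscarinic receptors, Chrm3 was higher in KO libraries, Chrm4 had a higher mean in KO without passing, and Chrm1 varied more between libraries of a group than between groups. Chrm3 encodes the M3 receptor, known as the main muscarinic receptor of insulin-secreting beta cells. Controls 1 to 4 gave 727, 955, 548 and 749 normalized counts of Chrm3, against 1241 for KO 1, 1098 for KO 2 and 1265 for the unnumbered KO. No KO library reached down to the highest control. The means were 745 ± 167 (SD, n = 4) and 1201 ± 90.5 (SD, n = 3), 1.61 times as high in KO. DESeq2 put the log2 fold change at 0.69 (SE 0.20; adjusted p 0.0137), where 2.24% of all genes tested were called higher. In edgeR the adjusted p was 0.131, and the two-sided exact permutation p was 0.0571. The DESeq2 call was lost without control 1 (adjusted p 0.0717), KO 1 (0.172) or the unnumbered KO library (0.112).

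Chrm4 encodes the M4 receptor, through which acetylcholine is known to restrain somatostatin release from delta cells of mouse islets. Controls 1 to 4 gave 212, 401, 207 and 150 normalized counts of Chrm4, against 500 for KO 1, 350 for KO 2 and 502 for the unnumbered KO. Control 2 lay above KO 2, so the groups overlap. The means were 242 ± 110 (SD, n = 4) and 450 ± 86.9 (SD, n = 3), with a log2 fold change of 0.90 (SE 0.34). The adjusted p was 0.122 in DESeq2 and 0.326 in edgeR, and the exact permutation p was 0.0857. Without control 2 the log2 fold change was 1.25 and the adjusted p of DESeq2 was 3.56e-04. KO 1, the unnumbered KO and control 2, the 3 highest libraries for Chrm4, were also the 3 highest for Sst, the somatostatin gene of delta cells, at 582613, 408438 and 372438 normalized counts. Sst ran from 186722 to 328795 in the remaining libraries. Per 1000 normalized counts of the delta cell factor Hhex, a ratio chosen after the values were seen, Chrm4 stood at 173 to 270 in controls and 255 to 290 in KO libraries. Of the 5 delta cell markers, 2 were higher in KO (Rbp4 and Ffar4) and none was lower. Rbp4 and Ffar4 did not follow Chrm4. Both were highest in KO 2, at 54008 and 1660 normalized counts, where Chrm4 was lowest of the KO libraries. Hhex and Ghsr had the same 3 highest libraries as Sst. The summed level of the 5 markers ran from 197155 to 400129 in controls and from 356961 to 633738 in KO libraries. Chrm3 per 1000 counts of Sst ran from 2.21 to 4.01 in controls and from 2.13 to 3.66 in KO, so these ranges overlap. Per 1000 counts of Ins2, an insulin gene of beta cells, Chrm3 ran from 1.59 to 3.41 in controls and from 1.99 to 3.85 in KO, overlapping too. The part of delta cells in the values of Chrm4 and Chrm3, and that of beta cells in those of Chrm3, was not tested.

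No promoter entry was available for Avpr1b. Of the 6 receptors with an entry, Adra1b, Adra2a, Chrm3, Chrm4 and Crhr1 had a higher mean in KO libraries. Shown here are the promoters of Chrm3, which passed in DESeq2, and of Chrm4, which did not. They are the 250 bases before the RefSeq start site on GRCm38.p6, read 5′ to 3′ on the strand of the gene. Capitals mark the letters AAGTG or their reverse complement CACTT, the core of sites bound by homeodomains of the NK-2 class, to which NKX2.2 belongs.
Chrm3 promoter, chr13:10360804-10361053, minus strand: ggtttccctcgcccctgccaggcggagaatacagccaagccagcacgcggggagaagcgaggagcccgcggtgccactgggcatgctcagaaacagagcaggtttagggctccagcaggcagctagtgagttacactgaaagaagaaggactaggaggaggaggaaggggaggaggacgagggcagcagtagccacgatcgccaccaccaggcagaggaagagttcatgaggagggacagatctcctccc
Chrm4 promoter, chr2:91921939-91922188, plus strand: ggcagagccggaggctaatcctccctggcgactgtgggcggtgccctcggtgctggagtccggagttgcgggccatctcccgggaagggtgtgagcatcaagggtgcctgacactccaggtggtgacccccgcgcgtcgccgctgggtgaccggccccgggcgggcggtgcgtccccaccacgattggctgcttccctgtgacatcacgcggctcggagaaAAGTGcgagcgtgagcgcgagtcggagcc
Chrm4 had 1 match and Chrm3 had 0. On both strands, 40.7% of 32851 mouse promoter windows of this length hold these letters, so a match is common. Each is a description of letters, not of a bound site. The GENCODE M21 model of Chrm4 (chromosome 2, 91927249 to 91928688) spans 1440 bases and begins 5060 bases after this RefSeq start, so reads from an upstream exon would not be counted if that model was used. Chrm3 spans chromosome 13, 9875486 to 10360847, on the minus strand.

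Chrm1 encodes the M1 receptor, which is found mainly on neurons. Its normalized counts were low, at 15.9, 73.1, 81.1 and 32.5 for controls 1 to 4, against 0 for KO 1, 74.4 for KO 2 and 13.3 for the unnumbered KO. The 0 of KO 1 allows up to 3 counts, a CPM of 0.0545. For Chrm1 the log2 fold change in DESeq2 was -0.79 (SE 1.10; adjusted p 0.972), and the edgeR adjusted p was 0.938. Control 2, control 3 and KO 2 were the 3 highest libraries. The same 3 libraries were highest for 3 genes of cholinergic nerve cells: Slc5a7, the choline transporter, Slc18a3, which loads acetylcholine into vesicles, and Chrna3, the nicotinic subunit of autonomic ganglia. Slc5a7 had 151, 173 and 229 normalized counts in them and between 0 and 60.7 in the remaining 4 libraries. Chrna3 had 153, 178 and 213 in them and between 0 and 54.9 in the remaining libraries. The neuronal filament gene Prph, from the list of autonomic neuron markers, had 594, 510 and 531 there, against 70.3 in control 1, 80.9 in control 4, 9.78 in KO 1 and 194 in the unnumbered KO library. These genes, chosen after their values were seen, varied together across the libraries of each group. None of the 6 neuron markers was called in DESeq2, and their summed level ran from 3054 to 5678 in controls and from 4346 to 5389 in KO libraries. The part of nerve cells in the Chrm1 counts was not tested. Exons of the opposite strand cover 5.07% of Chrm1 (chromosome 19, 8663789 to 8683587).

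**Figure D2:**
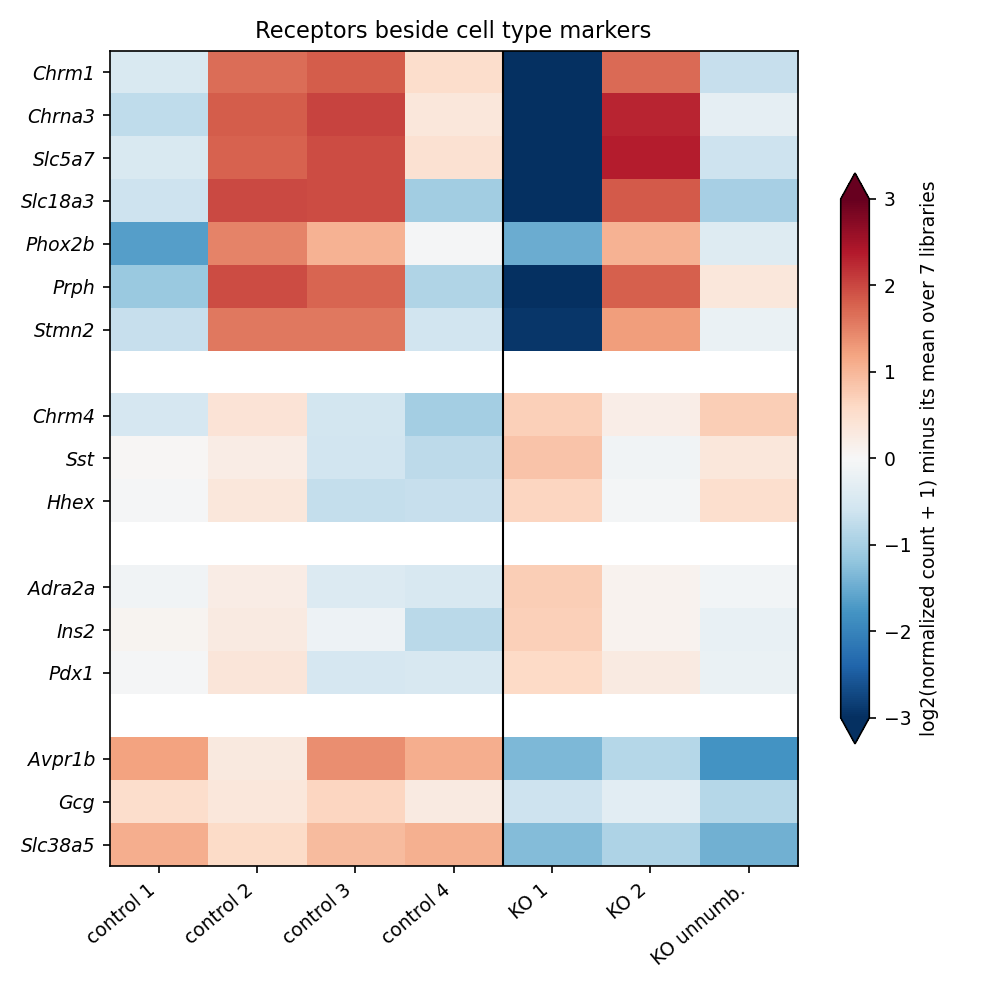
Difference of log2(normalized count + 1) from its mean over the 7 libraries, with a column per library (controls left of the line) and a row per gene. Chrm1 is shown with cholinergic and neuronal genes, Chrm4 with the delta cell genes Sst and Hhex, Adra2a with beta cell genes and Avpr1b with alpha cell genes. The rows of Chrm1 and the genes under it are red in control 2, control 3 and KO 2, and the Avpr1b row changes colour at the line between the groups.

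Of the 4 adrenergic receptors, none passed the threshold in DESeq2 or edgeR, while at an unadjusted p under 0.05 DESeq2 had 2 (Adra1a and Adra2a) and edgeR had 1 (Adra1a). Adra2a encodes the alpha-2A receptor through which noradrenaline lowers insulin release. Controls 1 to 4 gave 1351, 1671, 1085 and 1031 normalized counts of Adra2a, against 2404 for KO 1, 1560 for KO 2 and 1368 for the unnumbered KO. KO 1 stood above all other libraries, and the rest of the KO values lay within the range of the controls. DESeq2 put the log2 fold change at 0.47 (SE 0.23; adjusted p 0.383; edgeR 0.551), and at 0.19 without KO 1. All 9 beta cell markers were at their highest in KO 1 as well: the insulin gene Ins2 had 624599 normalized counts there, 219495 to 463704 in controls, 409619 in KO 2 and 328548 in the unnumbered KO. Per 1000 counts of the beta cell factor Pdx1, a ratio also chosen after the values were seen, Adra2a stood at 630 to 746 in controls and 621 to 769 in KO libraries, overlapping ranges. Of 9 beta cell markers, 1 was higher in KO and none lower, with summed levels from 338218 to 693220 in controls and from 531214 to 976137 in KO libraries. The part of beta cells in the Adra2a values was not tested.

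Adra1a encodes the alpha-1A receptor, a Gq-coupled receptor for noradrenaline. Adra1a gave 124, 213, 83.7 and 86.7 normalized counts for controls 1 to 4, against 151 for KO 1, 240 for KO 2 and 338 for the unnumbered KO. KO 1 lay below control 2, so the groups overlap. Its log2 fold change in DESeq2 was 0.94 (SE 0.42; adjusted p 0.266; edgeR 0.463). Without control 2 it was 1.31 and passed (adjusted p 0.0257). Per 1000 counts of Ppy, the pancreatic polypeptide gene of gamma cells, Adra1a stood at 0.362 to 0.585 in controls and 0.245 to 0.433 in KO, and the part of these cells was not tested. Adrb1, the beta-1 receptor of the heart, had 651, 494, 472 and 662 normalized counts in controls and 504, 573 and 322 in KO libraries. These values interleave, and the log2 fold change was -0.29 (SE 0.25; adjusted p 0.827 in DESeq2). Adra1a lies on chromosome 14 (66635251 to 66771168), Adra1b on chromosome 11 (43774606 to 43901210), and Adra2a (54044151 to 54048982) and Adrb1 (56722199 to 56733113) on chromosome 19. Adra1b was practically without counts. It had 0 in 6 of the 7 libraries and 2 in the unnumbered KO library, so no fold change is given. Adding the log2 of the Y-linked level as a covariate, chosen after the data were seen, brought Adra1a (adjusted p 0.0231), Adra2a (0.0132) and Chrm4 (0.00192) past the DESeq2 threshold beside Avpr1b and Chrm3. Calls over all genes rose as well with this covariate, from 792 to 1276. No KO library was near 0 for Y-linked transcripts, as controls 1 and 2 were.

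Crhr1 (chromosome 11, 104132855 to 104175523) encodes the type 1 receptor for corticotropin-releasing hormone and urocortins. It was close to the limit of detection, with raw counts of 2, 8, 22 and 0 for controls 1 to 4, 26 for KO 1, 16 for KO 2 and 8 for the unnumbered KO. DESeq2 gave it no adjusted p, and that of edgeR was 0.95. A difference in Crhr1 was not detectable at this depth. Its paralog Crhr2 averaged 88.9 ± 45.4 normalized counts (SD, n = 4) over the controls and 157 ± 68.8 (SD, n = 3) over the KO libraries (adjusted p 0.576 in DESeq2). The glucocorticoid receptor gene Nr3c1 (6244 ± 558 and 5503 ± 430) and the mineralocorticoid receptor gene Nr3c2 did not pass, with adjusted p-values of 0.618 and 0.998. Mc2r, the receptor for adrenocorticotropic hormone, had 0 counts in all 7 libraries. Ucn3, the urocortin gene of islets and a ligand of CRHR2, had 1246 ± 294 and 1840 ± 479 normalized counts, with an adjusted p of 0.201.

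To compare genes with each other, CPM (counts scaled to a fixed library total) was divided by exon length in kb. On this scale of level per length, Oxtr led the receptors in controls at 31.9 ± 7.66 (SD, n = 4), followed by Nr3c1 at 14.5 ± 1.19 and Avpr1b at 7.99 ± 2.28. Among the 9 receptors the order in controls was Avpr1b, Adra2a at 4.72 ± 1.01, Adrb1 at 3.02 ± 0.68, Chrm4 at 2.97 ± 1.28, Chrm3 at 2.13 ± 0.495, Adra1a at 0.258 ± 0.118, Chrm1 at 0.137 ± 0.08 and Crhr1 at 0.07 ± 0.0891, with Adra1b at 0. Over the control libraries, the ranges of Avpr1b and Adra2a overlapped, as did those of Adrb1, Chrm4 and Chrm3, and those of Adra1a, Chrm1 and Crhr1. Chrm4, at 4.84 in control 2, also overlapped with Adra2a and Avpr1b. Adra2a and Adrb1 did not overlap, nor did Chrm3 and Adra1a. In KO libraries, Adra2a at 6.97 ± 1.97 (SD, n = 3) and Chrm4 at 6.01 ± 1.46 led the 9 genes, and Avpr1b was at 1.67 ± 0.437, below Chrm3 at 3.68 ± 0.51 and Adrb1 at 2.60 ± 0.564. The level of Chrm4 rests on a short gene model and is uncertain.

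**Figure D3:**
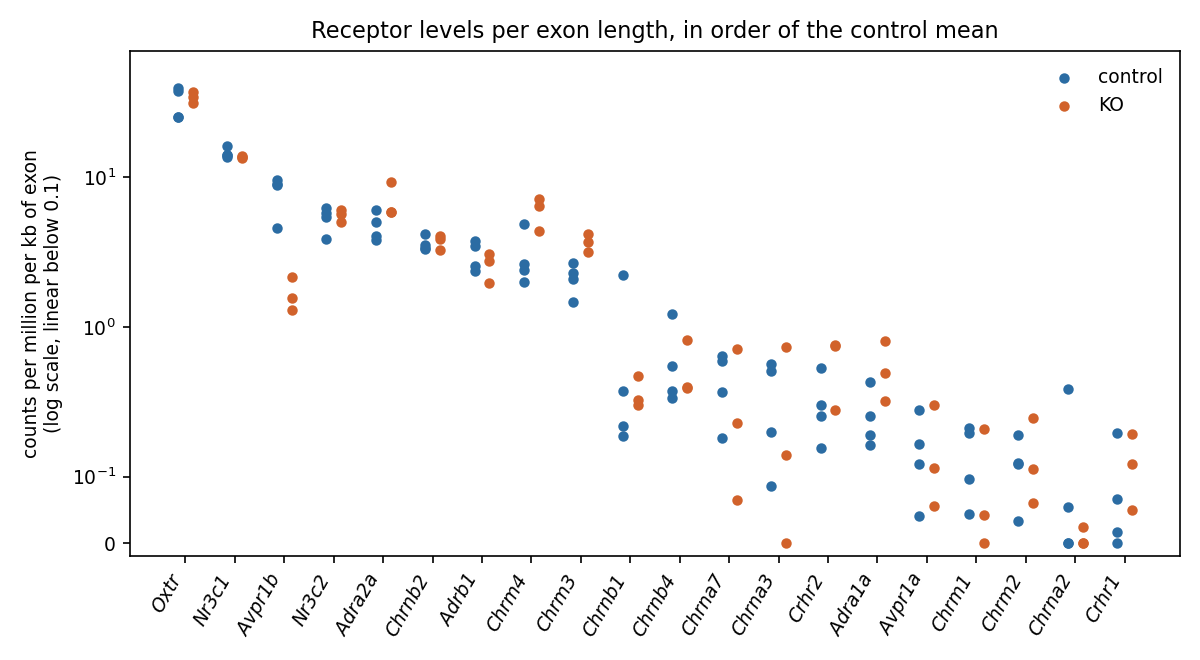
CPM per kb of exon for reported receptor genes with a control mean of at least 0.1, and for Crhr1, ordered by the control mean, with 1 point per library. The axis is logarithmic above 0.1 and linear below. Avpr1b ranks 3 in controls, and its 3 KO libraries lie between 1.29 and 2.15.

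As a set, 7 of the 9 receptors received an adjusted p in DESeq2, and 2 of them were called, 1 in each direction. The 2 without one, Adra1b and Crhr1, had at most 26 counts. The median log2 fold change of the 7 tested was 0.47, beside 0.01 over all 17571 genes tested, with 4 above 0 and 3 below. The control and KO libraries did not overlap for 2 of the 7, Avpr1b and Chrm3, against 12.0% of all genes tested. In edgeR, 1 of 8 was called. Over all genes tested, the shares called were 4.51% in DESeq2 and 1.05% in edgeR. At an unadjusted p under 0.05 in DESeq2, 5 of the 7 passed (Avpr1b, Chrm3, Chrm4, Adra1a and Adra2a), against 12.2% of all genes tested. The receptors were chosen with earlier results of these data known, so these shares are not a test of the set. The 3 genes closest to Chrm3 in profile were Tet3, Bicdl2 and Tmem184c, at mean absolute differences of 0.0712, 0.0777 and 0.0843 log2 units. Of these, Tet3 (0.76, adjusted p 0.00126) and Tmem184c (0.79, 3.39e-04) were higher in KO in DESeq2, and Bicdl2 was not called (0.62, 0.233).

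Downstream of the Gq-coupled receptors, 3 of the 13 tested genes of Gq signalling were called in DESeq2, 1 higher and 2 lower, and 2 of these also in edgeR. Over all genes tested the shares called were 4.51% and 1.05%. The median log2 fold change of the list was -0.03. Itpr3, a receptor channel for inositol trisphosphate that releases calcium from the endoplasmic reticulum, gave 8885, 8737, 9490 and 9773 normalized counts for controls 1 to 4, against 5984 for KO 1, 4742 for KO 2 and 4912 for the unnumbered KO. Its groups did not overlap. DESeq2 put the log2 fold change at -0.82 (SE 0.12; adjusted p 3.53e-10; edgeR 0.0137). Itpr1, a channel of the same family, fell in DESeq2 from 52838 ± 5476 (SD, n = 4) to 38498 ± 2484 (SD, n = 3), where its adjusted p was 0.00212, against 0.151 in edgeR. It did not pass without KO 1 (adjusted p 0.0801) or when scaled to library totals (0.0936). Plcb4, a phospholipase C that Gq activates, rose from 3356 ± 347 to 4959 ± 88.7. Its log2 fold change was 0.56 (SE 0.11; adjusted p 5.17e-05; edgeR 0.0357). The Gq alpha subunit genes Gnaq and Gna11 were not called, with log2 fold changes of -0.12 and -0.03. When each library was left out in edgeR, Itpr3 lost its call without control 1 (adjusted p 0.0511), KO 2 (0.0778) or the unnumbered KO (0.0631), and Plcb4 kept it only without control 2 or control 4, with an adjusted p of up to 0.181 otherwise.

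Receptor kinases and arrestins, which switch off activated receptors, had 0 of 7 genes called in DESeq2 and 0 in edgeR (2 in each at an unadjusted p under 0.05, which 12.2% of all genes tested reached in DESeq2), with a median log2 fold change of 0.04. Grk2 was the most abundant per length, with a level of 17.5 ± 0.879 (SD, n = 4) over the controls and 17.6 ± 1.12 (SD, n = 3) over the KO libraries. Arrb2 (log2 fold change -0.41, adjusted p 0.0725) and Grk3 (-0.48, 0.0995) were nearest to the threshold in DESeq2. Of 16 nicotinic subunits, 4 could be tested in DESeq2, and edgeR also tested Chrna5 and Chrnb1. None was called in DESeq2 or edgeR, nor was any at an unadjusted p under 0.05. Chrnb2 was the most abundant per length, at 3.59 ± 0.413 in controls and 3.72 ± 0.39 in KO libraries. Chrnb1 had 295 normalized counts in control 4 and between 27.1 and 66.1 in the other libraries, and DESeq2 gave it no adjusted p. Among ligand genes and enzymes, 1 of 9 tested was called in DESeq2 and none in edgeR, with 2 in each at an unadjusted p under 0.05, beside 4.51% of all genes called and 12.2% at that unadjusted p in DESeq2. The called gene was Bche, encoding butyrylcholinesterase, which breaks down acetylcholine and other choline esters. Controls 1 to 4 gave 6.81, 30.7, 13.1 and 11.6 normalized counts of Bche, against 74.3 for KO 1, 99.1 for KO 2 and 62.2 for the unnumbered KO. Its groups did not overlap. DESeq2 put the log2 fold change at 2.35 (SE 0.61; adjusted p 0.00502; edgeR 0.103). It did not pass in DESeq2 without KO 1 (0.0953) or KO 2 (0.159). Ache, encoding acetylcholinesterase, was not called (-0.28, adjusted p 0.665).

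**Figure D4:**
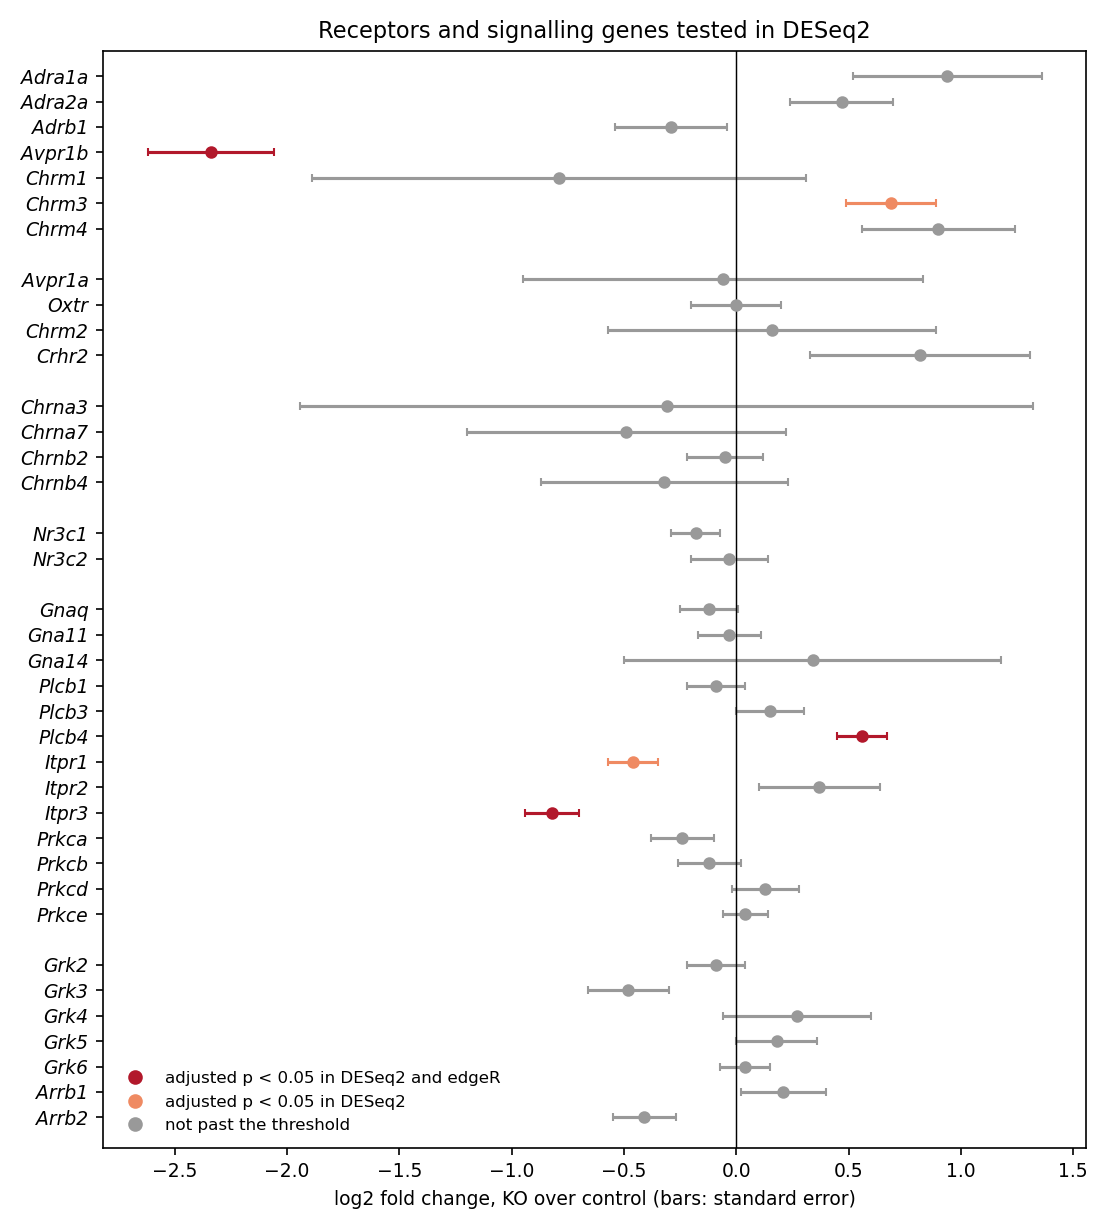
Log2 fold change of KO over control with its standard error in DESeq2, for the receptors, Gq signalling genes and receptor regulators that are reported here, in 6 blocks. Dark red marks genes past the threshold in both tests (Avpr1b, Plcb4 and Itpr3), orange those in DESeq2 alone (Chrm3 and Itpr1), and grey the rest.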

How the data were processed

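The authors deposited whole-number counts per gene for 7 libraries. Per the submitters' processing notes, FastQC, STAR, featureCounts and DESeq2 were used with mm10; their settings and the strand setting of counting are not given in the sources used here. Per the labels' protocols, libraries were made with a stranded, ribosome-depleting kit for low input, while the molecule label reads polyA RNA. Between 84.4% and 88.9% of counts from 1 to 10 were even, a pattern that counting both mates of a read pair gives, so fewer fragments than counts may lie behind each value; limits of 3 counts cover counting error only. Libraries were grouped by sample title; 1 KO column had no title of its own number.

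KO and control were compared with DESeq2 1.42.0, the tool the series' design text names (R 4.3.3; Wald test, no covariate, genes without any count dropped, default filters at a threshold of 0.05), and with the quasi-likelihood test of edgeR 4.0.16; limma 3.58.1 gave a further alternative. Adjusted p-values are Benjamini-Hochberg over all genes tested; normalized counts are counts divided by DESeq2 size factors. Gene positions are from GENCODE M21 on GRCm38, and promoters from RefSeq (GRCm38.p6), with entries for 6 of the 9 receptors. The scripts were tested on simulated data for 19652 genes. In that run DESeq2 picked 166 genes at the threshold, and 31.9% of these picks were wrong. The error share was 2.35% among the 85 genes that edgeR picked. Of the genes changed by 1 log2 unit, DESeq2 recovered 52% and edgeR 32%. Changed genes in that run moved by 1 or 2 log2 units, and whether its error shares hold for the real data was not tested. Genes or markers called in DESeq2 alone, such as Chrm3, Itpr1 and Bche, may still hold more errors than the threshold of 0.05 implies. Permutation tests used log2(normalized count + 1), 1 for each of 9 receptors. The receptors and lists were chosen with earlier results of these data known. Named were all 9 receptors, listed genes called in DESeq2 (some genes are not reported here), the 2 most abundant per length of each list, and the 3 genes closest in profile to each called receptor; other genes, the ratios and the neuron genes beside Chrm1 were chosen after their values were seen.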

Additional observations from a re-analysis of the deposited data

Results flagged for a closer look

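A single control library was far from the remaining 3 for 3 of the 42 genes examined (Dixon's ratio above its 95% critical value); about 2.1 are flagged by chance. Chrnb1, a nicotinic receptor subunit, had 295 normalized counts in control 4. Grk3, a receptor kinase, had 8266 in control 4. Slc25a43, closest in profile to Avpr1b, had 49.5 in control 2. None of the 9 receptors was among them.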

How the results depend on the processing

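Avpr1b kept its direction in all fits run, with log2 fold changes from -2.62 to -1.86, and its call in all but the block fit and 2 of the edgeR fits without 1 library. The number of the 9 receptors called was 2 in DESeq2, 1 in edgeR with or without its count filter, 5 with the Y-linked covariate and 1 without the 2 deepest libraries (both chosen after the data were seen), and between 1 and 4 without 1 library. Over all genes, 792 were called in DESeq2, 203 in edgeR, 329 in edgeR without its filter, 1379 with a term for the 2 deepest libraries, 1276 with the Y-linked covariate, and 430 to 910 without 1 library. Of the genes in the other lists, 5 were called in DESeq2, 2 in edgeR with or without its filter, 8 with a term for the 2 deepest libraries, 8 without them, and 2 to 6 without 1 library. The log2 fold change of Nkx2-2 lost its call at -0.45 in edgeR, -0.44 in edgeR without filter, -0.34 scaled to library totals and -0.41 in limma. Without 1 library it ran from -0.53 to -0.37, and was called without control 1 or control 4 but not in the other 5 fits. The causes were not tested, beyond fewer samples where a library was left out.

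Replicate numbers 1 and 2 occur in both groups. Deviations of same-numbered libraries correlated at 0.23 and 0.30 over 14570 genes, and those of different numbers at -0.09 and 0.06. Whether same-numbered libraries share more than a number is not given in the labels and cannot be told from these pairs alone. In DESeq2 with this replicate as a block, on 4 libraries, 580 genes and 0 of the 9 receptors were called (Avpr1b: -1.86, adjusted p 0.0997), and Nkx2-2 lost its call at -0.36 (adjusted p 0.0934). At the permutation test, 1 receptor passed under each scaling and pseudocount tried, and without 1 library the design cannot reach the threshold. Few counts limit Adra1b and Crhr1.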
